A study of Mus musculus with 41 samples.

Results

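The nonescalating group of a long-access cocaine self-administration study in mice was compared between about 1 month and 24 h after self-administration. It comprised every immunopurified library labelled nonescalating, 20 of the 41 libraries of the series, with 11 at 1 month and 9 at 24 h. The mice had taken cocaine by intravenous self-administration and belonged to the group whose intake is labelled as not escalating. The change over time was also set against that of escalating mice, which took cocaine as well (4 libraries at 1 month and 5 at 24 h), and of saline mice (5 at each time). All of these groups carried the transgene of line Drd1-TRAP CP73, on an FVB/N-Swiss Webster background crossed to C57BL/6 for at least 9 generations. The ages and the number of animals in a library are not stated, so p-values measure only the spread between these libraries. Libraries at 1 month and at 24 h are separate sets of samples, so time and anything else that differs between the 2 sets cannot be told apart.

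The line carries an EGFP-tagged ribosomal protein L10a driven by the regulatory sequences of Drd1, the gene of the dopamine D1 receptor. Translating ribosome affinity purification (TRAP) recovers RNA on the tagged ribosomes from homogenised dorsal striatum. The cells of origin are mainly D1 medium spiny neurons, the GABAergic neurons of the direct pathway, in which dopamine raises cyclic AMP through the D1 receptor. In rodents, cocaine given acutely induces immediate early genes in these neurons within minutes to hours, repeated exposure raises dynorphin, and a truncated FosB protein builds up and decays over weeks. The comparison of 1 month with 24 h asks what differs in these neurons after a period of withdrawal.

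Each of the 20 libraries had between 6929783 and 23925655 counts over 32531 named genes. Total counts were the only 1 of 22 library measures to differ between the times, at 13924270 ± 3665076 at 1 month (SD, n = 11) and 10221026 ± 1650818 at 24 h (SD, n = 9). The two-sided exact permutation test gave p = 0.00171, or 0.0376 after Benjamini-Hochberg adjustment over the 22 measures, and p = 0.0411 within the first run of replicate numbers. D1 markers were detected in each of the 20 libraries (11 of 11 genes), and Drd1 averaged 574 CPM (counts scaled to a library total of 1000000) at 1 month and 623 CPM at 24 h, against 388 CPM in the 2 saline inputs. Drd2, the marker of indirect-pathway neurons, averaged 20.9 and 22.5 CPM at these times, against 202 CPM in the inputs. Microglial markers summed to 0.446 to 16.9 CPM at 1 month and 0.441 to 17.7 CPM at 24 h, and 4 of the 12 were at 0 in at least 10 of the 20 libraries. The Y-linked Ddx3y was read at 23.1 to 51 CPM in every library.

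No gene passed the test between 1 month and 24 h in the nonescalating group. The genes that define D1 neurons, the neuropeptide genes, the dopamine and cyclic AMP cascade, the immediate early genes, receptors, channels and synaptic genes each had overlapping values at the 2 times. Of 12905 genes tested with edgeR's quasi-likelihood test, 0 passed an adjusted p under 0.05 (0%), and 401 had an unadjusted p under 0.05 (3.11%), 190 with a positive and 211 with a negative fold change. The lowest adjusted p in edgeR was 0.999, and for 0 genes did the 2 sets of libraries fail to overlap. DESeq2 called 1 gene, Supt20, and had 753 at an unadjusted p under 0.05.

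The absence of calls has a measured precision. The median standard error of a log2 fold change was 0.23, and the 95% interval of the fold change lay wholly within 2-fold for 9100 genes (70.5%) and within 1.5-fold for 5697 genes (44.1%). The intervals were narrowest for abundant transcripts. Among the 2044 genes with a mean of at least 100 CPM, 99.2% were held within 2-fold and 95.6% within 1.5-fold. Among the 4162 genes at 20 to 100 CPM these shares were 97.6% and 74.4%, and among the 3735 genes at 5 to 20 CPM they were 73.4% and 17.3%. At 1 to 5 CPM, 9.57% of 2833 genes were held within 2-fold and 0 within 1.5-fold, so for most of these rarer transcripts a 2-fold difference lay inside the interval.

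**Figure D1:**
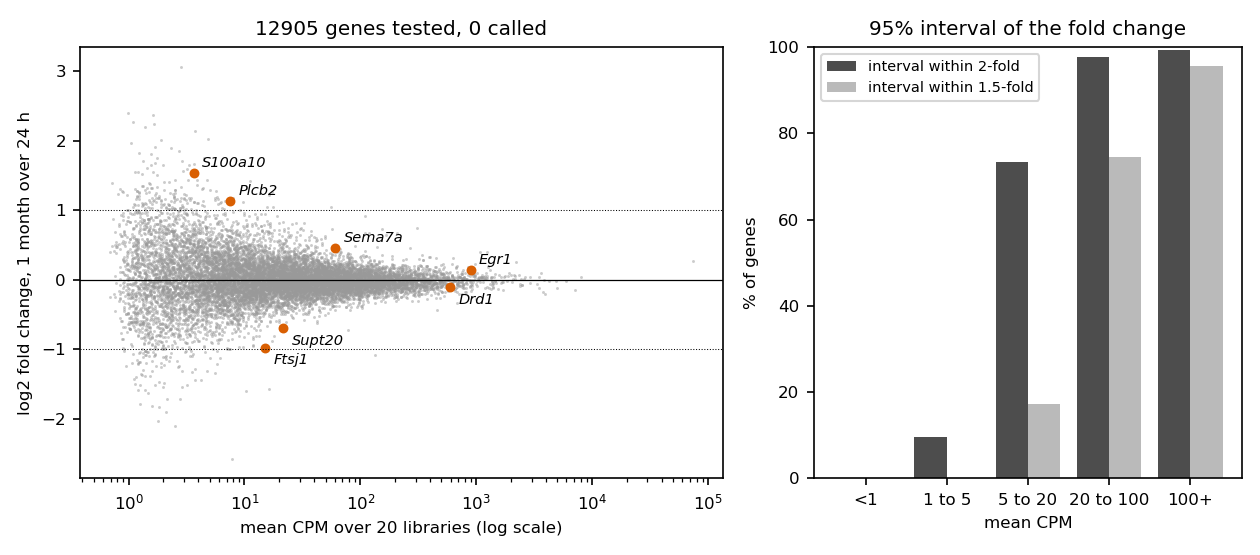
Left, the log2 fold change (1 month over 24 h) of each of the 12905 genes tested against its mean CPM over the 20 nonescalating libraries (log scale), with 7 genes named in the text in orange and dotted lines at 2-fold. Right, the percentage of genes whose 95% interval lies within 2-fold (dark) or 1.5-fold (light), by mean CPM. The spread of fold changes narrows with level, and 99.2% of genes at 100 CPM or more are held within 2-fold.

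The identity genes of D1 neurons were measured closely and did not pass. Of 11 D1 markers, 0 were called in either direction, the median log2 fold change was 0.04 against -0.01 over all genes tested, and all 11 intervals lay within 2-fold. Their direction turned between the runs of replicate numbers. With only the first run 4 of 11 were positive (median -0.12), and with only the second 10 of 11 were (median 0.23). In the second run 2 of the 11 had an unadjusted p under 0.05 in edgeR, against 879 of 13822 genes in all. In either run 0 were called. Drd1 (chromosome 13, 54051183 to 54055705) ranged over 438, 578 and 659 CPM (lowest, median and highest) at 1 month and 510, 627 and 737 CPM at 24 h. The ranges overlapped, with 3 libraries at 24 h above every one at 1 month and 1 at 1 month below every one at 24 h. Its log2 fold change was -0.11 ± 0.09 (every fold change is given with its standard error), with a 95% interval of -0.30 to 0.08.

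Among neuropeptide genes, Pdyn (chromosome 2, 129686565 to 129699844), the precursor of dynorphin, had 197, 227 and 318 CPM at 1 month and 151, 202 and 287 CPM at 24 h (lowest, median and highest). Only 1 library at 1 month exceeded all of those at 24 h, and 3 at 24 h lay below all of those at 1 month. The log2 fold change was 0.19 ± 0.11, with an interval of -0.04 to 0.41. Tac1, the precursor of substance P, had 159, 213 and 422 CPM at 1 month and 158, 245 and 519 CPM at 24 h, almost the same range. Its fold change of -0.13 ± 0.20 had an interval of -0.55 to 0.29. Penk, the enkephalin precursor of indirect-pathway neurons, had 114, 141 and 219 CPM at 1 month and 88.4, 152 and 290 CPM at 24 h, with a fold change of -0.17 ± 0.17. Of 25 neuropeptide and receptor genes 17 were tested, 9 had a positive fold change, and 11 intervals lay within 2-fold.

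Rarer peptide genes were much less certain. Cartpt, which encodes the cocaine- and amphetamine-regulated transcript, had 0, 1.30 and 7.24 CPM at 1 month and 0.0846, 2.74 and 17.2 CPM at 24 h. Its fold change of -1.29 ± 0.71 had an interval of -2.76 to 0.18, and 3 libraries at 24 h lay above all of those at 1 month. Crhr1, a receptor for corticotropin-releasing hormone, had 0, 1.18 and 17.7 CPM at 1 month and 0, 0.289 and 1.73 CPM at 24 h. A single library at 1 month, run 1 replicate 4, held the 17.7 CPM, and no other library at 1 month exceeded the highest one at 24 h. The fold change of Crhr1 was 2.37 ± 0.87 (edgeR unadjusted p = 0.0114, adjusted p = 0.999). Bdnf, a neurotrophin gene, had too few counts to be tested in this comparison.

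Immediate early genes, which mark recent neuronal activity, spanned wide ranges at both times. Of 28 on the list 25 were tested, 14 had a positive and 11 a negative fold change, 0 had even an unadjusted p under 0.05, and the median was 0.03. Their direction turned between the runs of replicate numbers. With only the first run 8 of 25 were positive (median -0.15), and with only the second 18 of 26 were (median 0.38). In the second run 6 of the 26 had an unadjusted p under 0.05 in edgeR, against 879 of 13822 genes in all. In either run 0 were called. Egr1, a zinc finger transcription factor gene, had 464, 886 and 1307 CPM at 1 month and 595, 765 and 1221 CPM at 24 h, and its fold change of 0.14 ± 0.16 had an interval of -0.20 to 0.48. Fosb, whose splice form encodes the long-lived FosB protein, had 11.2, 29.2 and 45.8 CPM at 1 month and 13.2, 30.2 and 33.0 CPM at 24 h. At 1 month 3 libraries lay above all of those at 24 h and 1 below all of them, and the fold change was 0.25 ± 0.22 (interval -0.20 to 0.70). Counts per gene do not separate the splice forms.

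Arc, a synaptic plasticity gene, had 7.80, 54.7 and 100.6 CPM at 1 month and 23.6, 53.0 and 120 CPM at 24 h, so that libraries of the same time differed far more than the times did. Its fold change of -0.13 ± 0.39 had an interval of -0.94 to 0.69. Npas4, an activity-dependent transcription factor gene, had 0.867, 11.3 and 30.8 CPM at 1 month and 3.46, 10.5 and 42.0 CPM at 24 h (-0.12 ± 0.53), and the orphan nuclear receptor gene Nr4a1 had 10.7, 67.4 and 148 CPM at 1 month and 26.2, 62.4 and 159 CPM at 24 h (-0.08 ± 0.43). The lowest of the 1 month values of Arc, Npas4 and Nr4a1, and of Egr1, came from the same library, run 1 replicate 2. Fos was low at both times, with 0, 2.05 and 7.46 CPM at 1 month and 0, 2.47 and 15.2 CPM at 24 h. Its fold change of -0.75 ± 0.69 had an interval of -2.16 to 0.66. The lowest p of the list belonged to Ier5, with 23.02, 31.3 and 52.9 CPM at 1 month and 30.6, 37.7 and 65.3 CPM at 24 h (-0.33 ± 0.16, edgeR unadjusted p = 0.0538).

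**Figure D2:**
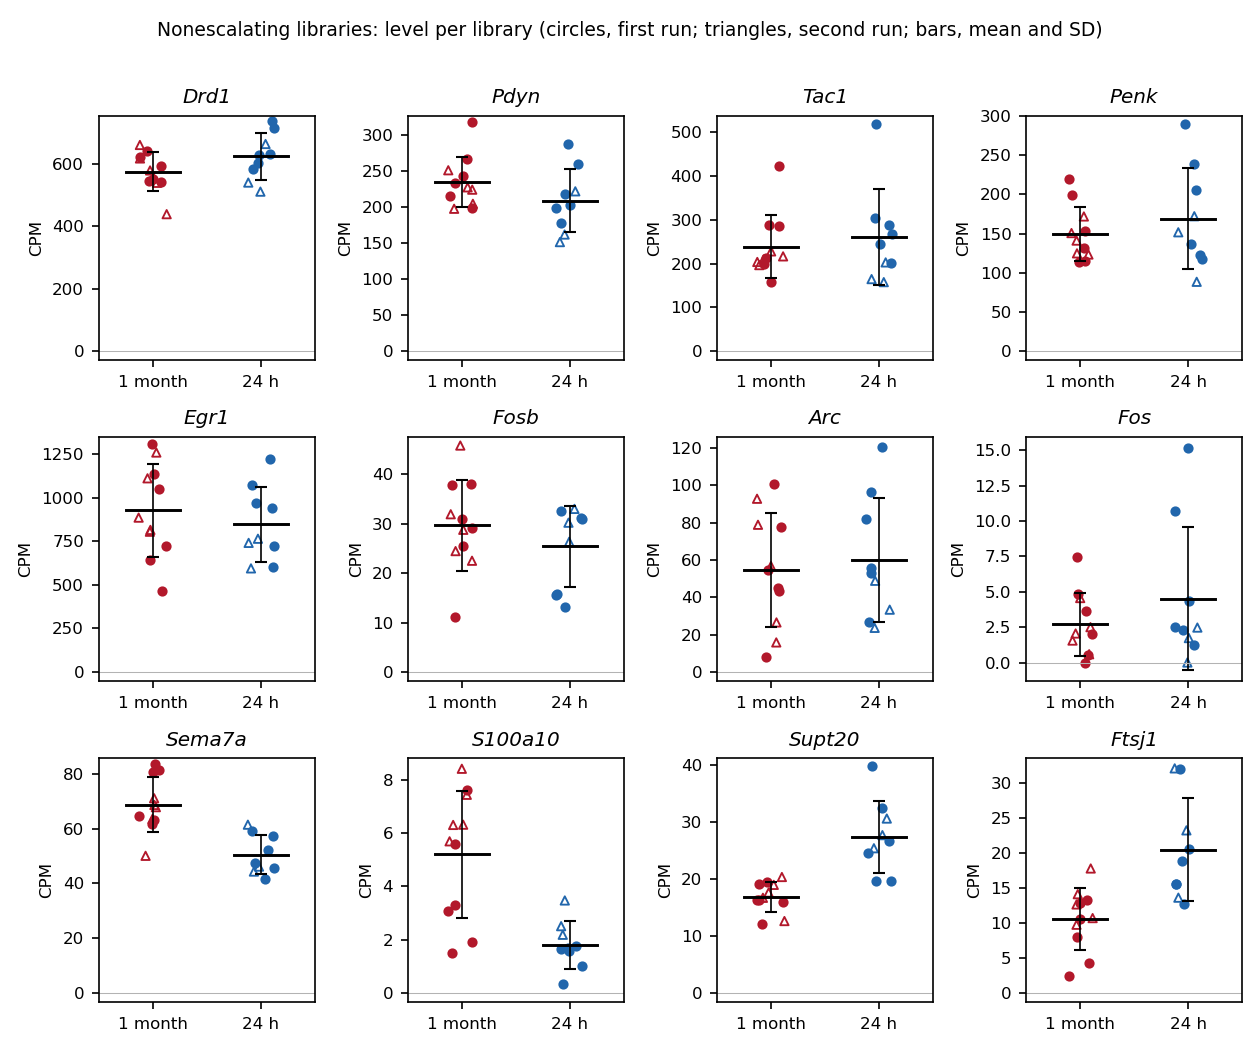
Level of 12 genes in each nonescalating library, in CPM, with 1 month (red) left of 24 h (blue); circles are the first run of replicate numbers and triangles the second, and bars give the mean and SD over 11 and 9 libraries. The times overlap for each gene, including the 4 in the bottom row that were among those with the lowest p, where Sema7a and S100a10 sit mostly above and Supt20 and Ftsj1 mostly below the 24 h libraries.

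The dopamine and cyclic AMP cascade was among the most closely measured groups. All 37 of its genes were tested, 17 had a positive and 20 a negative fold change, 30 intervals lay within 1.5-fold and all 37 within 2-fold, and the median was -0.01. The lowest p belonged to Pde7b, a cyclic AMP phosphodiesterase gene, with 587, 696 and 959 CPM at 1 month and 506, 651 and 686 CPM at 24 h. Although 6 libraries at 1 month lay above all of those at 24 h, the fold change was 0.20 ± 0.09 and did not pass (edgeR unadjusted p = 0.0447, adjusted p = 0.999). The G protein genes Gnai2 (0.37 ± 0.18), Gnai1 (-0.20 ± 0.12) and Gnb5 (0.19 ± 0.12) followed. All 19 genes shared by medium spiny neurons were held within 1.5-fold, among them Ptpn5, the striatum-enriched phosphatase gene (0.14 ± 0.12), and the transcription factor gene Bcl11b (0.10 ± 0.13). Of these 19, 6 were positive with only the first run (median -0.03) and 15 with only the second (median 0.11).

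Receptor and channel genes likewise had 0 calls. Of 23 glutamate receptor genes tested, 15 were held within 1.5-fold, among them the AMPA receptor gene Gria2 (-0.11 ± 0.09), and of 14 GABA receptor genes 11 were. Gabra3, a GABA-A receptor subunit gene, had 3.97, 8.43 and 13.3 CPM at 1 month and 2.71, 7.50 and 52.8 CPM at 24 h. Its fold change of -0.95 ± 0.42 (edgeR unadjusted p = 0.0338) came with medians that lay the other way round. Of 47 potassium channel genes, 31 were held within 1.5-fold. The one with the lowest p was Kcnma1, which encodes the large-conductance calcium-activated channel, with 89.6, 133 and 164 CPM at 1 month and 122.5, 160 and 182 CPM at 24 h. At 24 h 4 libraries lay above all of those at 1 month, and the fold change was -0.25 ± 0.10 (unadjusted p = 0.023). The 19 calcium channel genes had 17 and the 10 sodium channel genes 9 intervals within 1.5-fold.

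Synaptic, chromatin and clock genes also had 0 calls. Of 43 postsynaptic genes tested, 39 were held within 1.5-fold. The scaffold gene Grip1, which binds AMPA receptors, had 16.9, 24.4 and 33.6 CPM at 1 month and 12.9, 18.04 and 27.3 CPM at 24 h (0.41 ± 0.16, unadjusted p = 0.0184). Of 38 synaptic vesicle genes 36 were held within 1.5-fold. The vesicle protein gene Sv2b had 347, 436 and 554 CPM at 1 month and 363, 524 and 651 CPM at 24 h (-0.25 ± 0.11), and Vamp1, a synaptobrevin gene, had 8.83, 11.7 and 51.1 CPM at 1 month and 4.41, 11.6 and 16.4 CPM at 24 h (0.78 ± 0.33). Of 46 chromatin regulator genes 35 and of 19 circadian genes 12 were held within 1.5-fold. The clock gene Rora, which encodes a nuclear receptor, had 72.9, 111.4 and 156 CPM at 1 month and 72.9, 87.2 and 97.2 CPM at 24 h. Its 24 h libraries were closely grouped, 7 at 1 month lay above all of them and 1 below, and the fold change was 0.34 ± 0.13 (unadjusted p = 0.0169). None of these genes passed edgeR's adjusted threshold (adjusted p = 0.999 for each).

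Genes of translation and energy supply had 0 calls and mostly small positive fold changes. Of 78 ribosomal protein genes tested, 62 had a positive fold change, with a median of 0.11, against 6301 of the 12905 genes in all and a median of -0.01. The range ran from -0.35 to 0.53, with Rps14 highest at 13.4, 22.7 and 46.0 CPM at 1 month and 10.3, 17.2 and 25.6 CPM at 24 h (0.53 ± 0.23, unadjusted p = 0.032). Reads of these genes can be shared with their many processed pseudogenes. Rpl10a, whose counts include those of the tagged transgene, had 231, 279 and 371 CPM at 1 month and 159, 268 and 379 CPM at 24 h (0.07 ± 0.13). Fold changes were positive for 50 of 77 oxidative phosphorylation genes, with a median of 0.03, and 55 were held within 1.5-fold. The summed level was 4040 ± 700 CPM at 1 month (SD, n = 11) and 3798 ± 500 CPM at 24 h (SD, n = 9) for ribosomal protein genes, and 8018 ± 825 and 8071 ± 604 CPM in the same order for oxidative phosphorylation genes. The exact permutation test gave p = 0.397 and 0.879 for these sums. Within the first run the ribosomal protein means were 4110 and 4040 CPM at 1 month and 24 h (exact permutation p = 0.874). Within the second they were 3950 and 3320 CPM (exact permutation p = 0.0357, unadjusted, n = 5 and 3). For oxidative phosphorylation sums the same test gave p = 0.745 and 0.339. Fold changes were positive for 55 of 78 ribosomal protein genes in the first run and 71 in the second. For oxidative phosphorylation genes these were 45 and 66 of 77.

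**Figure D3:**
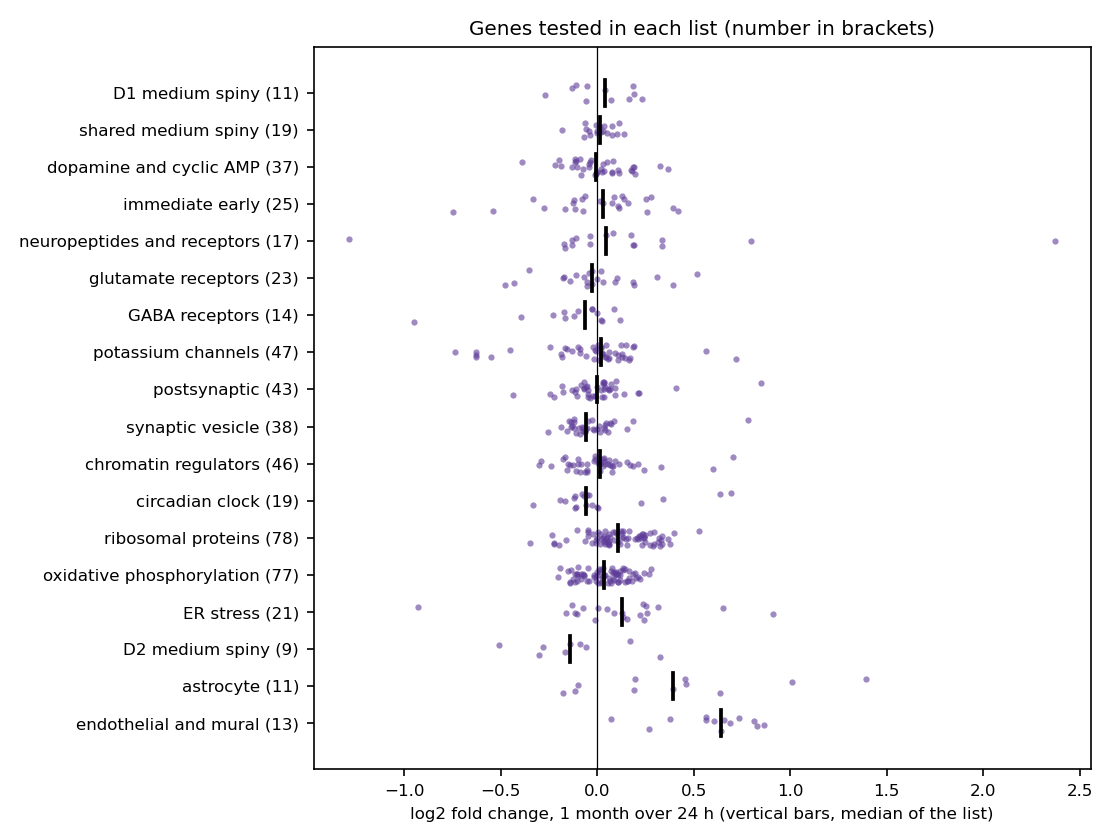
Log2 fold change (1 month over 24 h) of each gene tested in 18 lists, with the number tested in brackets and a vertical bar at each list's median. Most lists centre near 0, while all 13 endothelial and mural markers lie to the right of 0 (median 0.64), a direction that turns in the second run alone (median -0.58). Other lists turn between the runs too, also some centred near 0. Among them are D1 medium spiny (median -0.12 in the first run, 0.23 in the second) and immediate early genes (-0.15 and 0.38).

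Endothelial and mural markers varied widely between libraries, and their direction over time turned between the runs of replicate numbers. With all 20 libraries, 13 of 13 had a positive fold change, with a median of 0.64, 0 called, 0 with an unadjusted p under 0.05 and 0 held within 2-fold. With only the first run 13 of 13 were positive (median 1.67), and with only the second 0 of 13 were (median -0.58), with 0 called in either. Their summed level ran over 38.0, 282 and 1884 CPM at 1 month and 29.2, 157 and 1041 CPM at 24 h (lowest, median and highest). The highest libraries were run 1 replicate 6 and run 2 replicate 3 at 1 month and run 2 replicates 3 and 1 at 24 h. Kdr, the vascular endothelial growth factor receptor gene, had 1.58, 16.04 and 83.1 CPM at 1 month and 0.0882, 6.49 and 43.7 CPM at 24 h (0.83 ± 0.76, interval -0.76 to 2.41), with 2.25 ± 0.87 in the first run alone and -0.63 ± 0.99 in the second. The sum averaged 520 ± 537 CPM at 1 month (SD, n = 11) and 341 ± 384 CPM at 24 h (SD, n = 9), and the exact permutation test gave p = 0.44. Within the first run the means were 584 CPM at 1 month and 166 CPM at 24 h (exact permutation p = 0.104), and within the second 442 CPM at 1 month and 691 CPM at 24 h (exact permutation p = 0.464). The 2 saline inputs had 57.4 and 52.5 CPM of these markers, below the median at each time and above the lowest library. Why the medians were higher after purification was not tested. In a purified sample, a larger share of RNA from endothelial and mural cells and more RNA per cell cannot be told apart.

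Of 11 astrocyte markers tested 8 had a positive fold change, with a median of 0.39. Gja1, which encodes connexin 43, had 2.64, 4.12 and 9.00 CPM at 1 month and 1.15, 1.44 and 5.95 CPM at 24 h, and 6 libraries at 24 h lay below all of those at 1 month. Its fold change was 1.01 ± 0.39 (edgeR unadjusted p = 0.0159, adjusted p = 0.999). The first run of replicate numbers alone gave 1.68 ± 0.52 and the second 0.02 ± 0.56. Astrocyte markers summed to 403 ± 162 CPM at 1 month (SD, n = 11) and 341 ± 169 CPM at 24 h (SD, n = 9), with exact permutation p = 0.409. Within the first run the means were 410 and 268 CPM (exact permutation p = 0.0216, unadjusted), and within the second 395 and 486 CPM (exact permutation p = 0.75), in the order 1 month and 24 h. Of 13 oligodendrocyte markers tested 4 had a positive fold change, and their sum was 225 ± 105 CPM at 1 month and 200 ± 80.5 CPM at 24 h. With only the first run 9 of 12 were positive (median 0.34), and with only the second 4 of 14 were (median -0.69).

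Principal components of log2 CPM over 8155 genes with a mean of at least 10 CPM did not separate the times. The first component held 23.1% of the variance, and libraries spanned -23 to 33.8 at 1 month and -41.3 to 30.2 at 24 h. Of the 40 genes with the largest weights at its upper end 8 were endothelial or mural markers, and at its lower end 9 were oxidative phosphorylation and 4 ribosomal protein genes. On the second component (16.2%) 1 library at 24 h, run 1 replicate 4, lay at -56.3, and on the third (12%) 1 library at 1 month, run 1 replicate 2, lay at -64.6, each away from the rest. Without these 2 libraries edgeR called 0 genes, with 437 at an unadjusted p under 0.05. With the endothelial and mural level as a term it also called 0, with 387. The genes that varied most between libraries were Gbp4, a guanylate-binding protein gene (0 to 110 CPM), Ehd2 (0 to 49.1 CPM), and Tie1, an endothelial receptor gene (0 to 73.5 CPM).

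**Figure D4:**
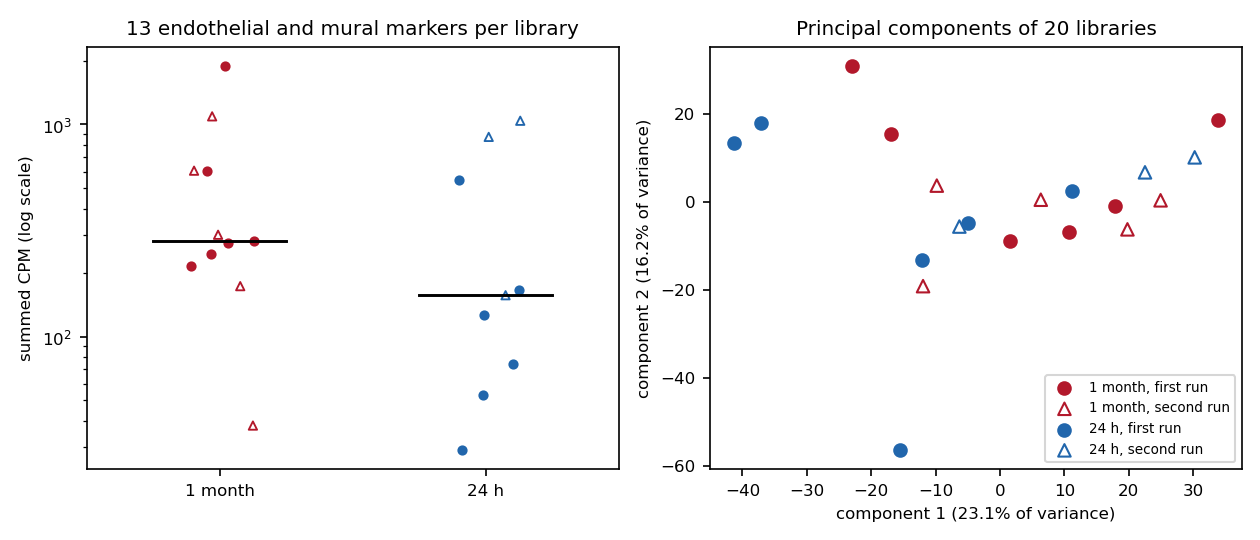
Left, summed CPM of 13 endothelial and mural markers in each nonescalating library (log scale), with a bar at the median of 1 month (282 CPM) and of 24 h (157 CPM). Right, the first and second principal components of the same 20 libraries, with symbols by time and run; the times overlap on both, and 1 library at 24 h lies at -56.3 on the second.

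The genes with the lowest p were picked after their values were seen, 6 with a positive and 6 with a negative fold change, and each had adjusted p = 0.999 in edgeR. Fits by run and under the alternatives reuse the libraries by which these genes were picked, so they are no independent support. Supt20 (chromosome 3, 54692807 to 54728766), which encodes a subunit of the SAGA transcription coactivator, had 12.1, 16.7 and 20.4 CPM at 1 month and 19.6, 26.7 and 39.9 CPM at 24 h. The ranges met only at their edges, with 10 of 11 libraries at 1 month below all of those at 24 h. Its log2 fold change was -0.69 ± 0.16 (interval -1.01 to -0.37, unadjusted p = 0.000152), with -0.69 ± 0.25 in the first run of replicate numbers and -0.68 ± 0.21 in the second. DESeq2 gave -0.69 ± 0.145 with adjusted p = 0.0374, its only call, and over 34 alternatives the fold change ran from -0.74 to -0.45.

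Ftsj1 (chromosome X, 8238668 to 8252406), a methyltransferase gene for transfer RNA, had 2.44, 10.7 and 17.8 CPM at 1 month and 12.8, 18.9 and 32.1 CPM at 24 h (-0.98 ± 0.27). Of the 11 libraries at 1 month, 7 lay below every 24 h library. The ubiquitin ligase gene Herc4 (-0.69 ± 0.20), the interleukin receptor gene Il12rb2 (-0.98 ± 0.29), the antiproliferative gene Btg1 (-0.72 ± 0.22) and the Integrator subunit gene Ints8 (-0.54 ± 0.16) made up the negative side. Btg1 had 4.26, 11.1 and 15.6 CPM at 1 month and 12.4, 16.3 and 29.6 CPM at 24 h, and 8 libraries at 1 month lay below all of those at 24 h. Ints8 had 22.6, 33.8 and 45.7 CPM at 1 month and 31.1, 51.2 and 75.2 CPM at 24 h.

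On the positive side, Sema7a (chromosome 9, 57940112 to 57962865), a membrane-anchored semaphorin gene, had 50.1, 67.9 and 83.7 CPM at 1 month and 41.5, 47.3 and 61.5 CPM at 24 h. Of the 11 libraries at 1 month 10 lay above all of those at 24 h. The fold change was 0.46 ± 0.12 (interval 0.22 to 0.70, unadjusted p = 0.000587), with 0.56 ± 0.17 in the first run and 0.35 ± 0.17 in the second. S100a10 (chromosome 3, 93555080 to 93564643), whose protein p11 binds annexin A2 and serotonin receptors, had 1.52, 5.70 and 8.42 CPM at 1 month and 0.328, 1.68 and 3.48 CPM at 24 h. There 7 libraries at 1 month lay above all of those at 24 h, and the fold change was 1.54 ± 0.41, with 1.54 ± 0.63 in the first run and 1.34 ± 0.39 in the second. Plcb2, a phospholipase C gene, had 4.72, 7.37 and 25.4 CPM at 1 month and 3.09, 4.02 and 7.50 CPM at 24 h (1.13 ± 0.31).

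The other genes of the positive side had few counts. Cacna2d4, a calcium channel subunit gene, had 1.16, 2.09 and 5.24 CPM at 1 month and 0.209, 0.577 and 2.56 CPM at 24 h (1.68 ± 0.50), with 8 of 9 libraries at 24 h below all of those at 1 month. Aven, a cell death inhibitor gene, had 0.4995, 1.60 and 12.9 CPM at 1 month and 0.274, 0.575 and 1.38 CPM at 24 h (2.01 ± 0.61). The histone gene Hist2h2bb had 0.0788, 1.39 and 41.3 CPM at 1 month and 0.0882, 0.385 and 1.67 CPM at 24 h, and only 1 library at 1 month lay above the 24 h range. Its fold change was 3.07 ± 0.92, the largest of all genes tested, and it was called under none of the alternatives.

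The change of the nonescalating group over time was next set against that of saline mice, which asks whether the passage of time after self-administration of cocaine differs from that after saline. One gene differed, Ttc7b (chromosome 12, 100300770 to 100520826), whose product helps bring phosphatidylinositol 4-kinase to the plasma membrane. In nonescalating libraries it had 195, 237 and 284 CPM at 1 month and 156, 212 and 288 CPM at 24 h, which overlap almost entirely. In saline libraries it had 211, 243, 193, 223 and 211 CPM at 1 month (replicates 1 to 5), against 311, 332, 645, 326 and 375 CPM at 24 h (replicates 1, 2, 3, 5 and 6). The log2 fold change over time was 0.15 ± 0.11 in nonescalating and -0.95 ± 0.17 in saline mice, and the difference between them was 1.10 ± 0.20.

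edgeR gave this difference adjusted p = 0.0376 in 1 fit of the 39 immunopurified libraries, where 1 of 15190 genes was called (0.00658%) and 1766 had an unadjusted p under 0.05 (11.6%). One of the saline libraries at 24 h, replicate 5, stood apart, with 5394332 counts, 11856 detected genes, 37.1% of counts outside genes, and 1853 CPM of endothelial and mural and 1253 CPM of astrocyte markers. The other 4 had 9872466 to 12889230 counts, 14.3% to 22.6% outside genes, and at most 566 CPM and 431 CPM of these markers. In the same fit saline mice had 129 genes called between the times (38 higher and 91 lower at 1 month, 0.849%). Nonescalating and escalating mice each had 0 called, with 409 and 818 genes at an unadjusted p under 0.05. In a fit without saline replicate 5 at 24 h, 90 of 15152 genes were called between the saline times. Counts of calls in groups of unlike size are no test of a difference between the groups. Ttc7b is known from these data as a gene that separates saline from cocaine libraries at 24 h, and the 24 h saline libraries enter here too, so the difference is no independent support for that. The call was lost with the replicate block (1.12, adjusted p = 0.102), with only the 30 nonescalating and saline libraries (1.11, adjusted p = 0.177) and with only the first run of nonescalating libraries (0.99, adjusted p = 0.166). It was also lost without any 1 of 13 libraries. These were saline replicate 3 at 24 h (0.85, adjusted p = 0.0714), saline replicates 1, 3 and 5 at 1 month (adjusted p = 0.126, 0.128 and 0.0674), and escalating replicate 5 at 24 h (0.0504). Of the nonescalating libraries they were run 1 replicates 5 and 6 and run 2 replicates 1, 2 and 3 at 24 h (0.0514 to 0.085), and run 1 replicate 4 and run 2 replicates 2 and 5 at 1 month (0.0569 to 0.0683). DESeq2 called 99 genes, 71 with a positive and 28 with a negative difference, Ttc7b among them (adjusted p = 0.000229).

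The 4 genes next by p did not pass in edgeR, and in each the saline means at the 2 times lay further apart than the nonescalating ones. Car11, a gene related to carbonic anhydrases, had 181 ± 24.9 CPM at 1 month (SD, n = 11) and 168 ± 30.1 CPM at 24 h (SD, n = 9) in nonescalating libraries. In saline libraries it had 160.4 ± 14.02 CPM at 1 month and 298.5 ± 111.4 CPM at 24 h (SD, n = 5 each). The difference of the fold changes was 1.09 (adjusted p = 0.0742 in edgeR). Srrm2, a splicing factor gene, had 1429 ± 122 and 1402 ± 158 CPM in nonescalating libraries at 1 month and 24 h, and 1207 ± 126 and 1809 ± 381 CPM in saline libraries in the same order, a difference of 0.69 (edgeR, adjusted p = 0.0742). Vopp1 ran the other way, with 59.3 ± 12.5 and 71.8 ± 13.4 CPM in nonescalating libraries and 82.9 ± 14.4 and 41.3 ± 13.4 CPM in saline libraries, a difference of -1.21 (edgeR, adjusted p = 0.0742). For Nod2, an innate immune receptor gene, the difference of 4.84 (edgeR, adjusted p = 0.0775) came with 73.2 CPM in saline replicate 5 at 24 h and at most 11.3 CPM in any other immunopurified library, and without that library the difference was 2.94 (edgeR, adjusted p = 0.223).

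The cyclic AMP phosphodiesterase gene Pde4a had 85.9 ± 14.1 CPM at 1 month and 76.8 ± 13.1 CPM at 24 h in nonescalating libraries, against 80.2 ± 4.90 and 134 ± 34.8 CPM in saline libraries in that order, a difference of 0.995 (edgeR, adjusted p = 0.0775). The transcription factor gene Klf7 had 54.3 ± 16.4 and 56.8 ± 20.4 CPM in nonescalating libraries at 1 month and 24 h, and 52.3 ± 15.5 and 122 ± 60.6 CPM in saline libraries, a difference of 1.25 (edgeR, adjusted p = 0.17). In both genes the saline libraries at 24 h had the highest mean of the 6 groups. Both are preset genes, which were not chosen blind to these data.

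The lists with at least 5 genes tested whose median differed most from saline, named after their values were seen, depended in part on saline replicate 5 at 24 h. Nuclear noncoding RNAs had a positive difference in 12 of 12 (median 1.38), and in 11 of 12 (median 0.90) without that library. Interferon-responsive genes were positive in 10 of 15 (median 1.16), and in 3 of 15 (median -0.85) without it. Astrocyte markers were positive in 9 of 13 (median 1.07), and again in 9 of 13 (median 0.07) without it. Endothelial and mural markers were positive in 11 of 13 (median 0.96), and in 2 of 13 (median -0.42) without it. Immediate early genes were positive in 5 of 27 (median -0.38), and in 8 of 27 (median -0.30) without it. These counts stand against 7770 of 15190 genes in all (median 0.02), and 7384 of 15152 (median -0.01) without that library. No member of these 5 lists was called in either fit. Interferon and endothelial lists thus turned direction, while nuclear noncoding and immediate early lists kept theirs. With all 39 libraries the nuclear noncoding median over time was -0.04 in nonescalating and -1.38 in saline mice. The immediate early median was 0.03 in nonescalating and 0.51 in saline mice. In both lists the larger change over time was that of saline mice.

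**Figure D5:**
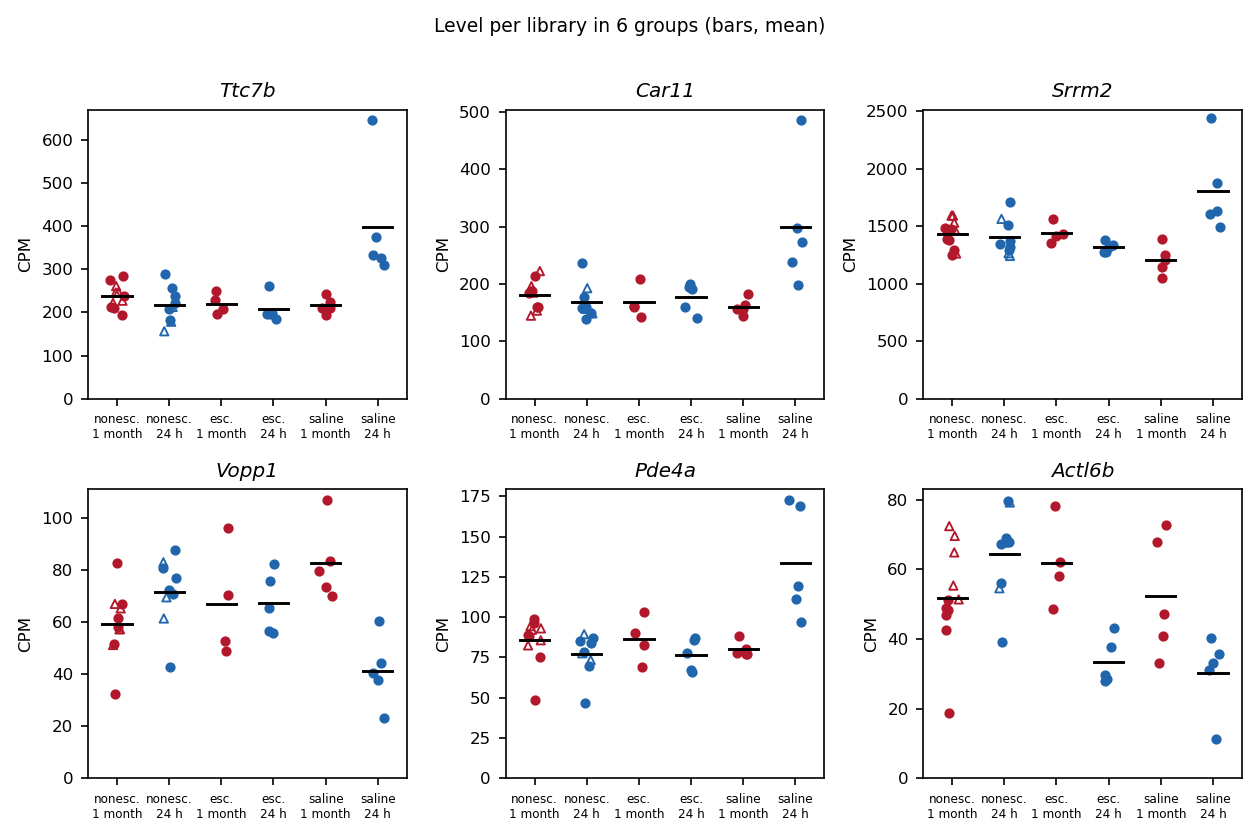
Level of 6 genes in each library of 6 groups, in CPM, with 1 month (red) left of 24 h (blue) for nonescalating (nonesc.), escalating (esc.) and saline mice; triangles are the second run of nonescalating libraries and bars the mean. For Ttc7b, Car11, Srrm2 and Pde4a the mean of the saline libraries at 24 h is the highest of the 6, for Vopp1 it is the lowest, and for Actl6b the saline and escalating means at 24 h are the 2 lowest.

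Set against escalating mice, which asks whether withdrawal differs with the intake pattern, the nonescalating change over time differed in 0 of 15190 genes (0%) in edgeR, while 487 reached an unadjusted p below 0.05 (3.21%), and in 0 genes in DESeq2, with 658 unadjusted. The preset gene Actl6b, which encodes the neuronal BAF chromatin remodelling subunit BAF53b, did not pass, with 51.9 ± 14.7 CPM at 1 month and 64.5 ± 12.8 CPM at 24 h in nonescalating libraries (SD, n = 11 and 9). In escalating libraries it had 48.6, 62.0, 58.2 and 78.1 CPM at 1 month and 37.7, 43.2, 28.0, 29.7 and 28.4 CPM at 24 h. The difference of the changes was -1.16 ± 0.34 (unadjusted p = 0.00162, edgeR). Against saline mice the difference for Actl6b was -1.04 ± 0.33 (unadjusted p = 0.00318, adjusted p = 0.22, edgeR). Its log2 fold change over time was 0.85 ± 0.29 in escalating and 0.73 ± 0.27 in saline mice. A difference of this size was thus not particular to the comparison with escalating mice. The preset genes were also not chosen blind to these data. The 5 genes with the lowest p for the difference from escalating mice did not pass either. Among them Ncam2, a neural adhesion gene, had 162 ± 34.3 and 145 ± 25.8 CPM in nonescalating libraries at 1 month and 24 h, and 136 ± 26.2 and 201 ± 19.2 CPM in escalating libraries, a difference of 0.78 (unadjusted p = 0.00134).

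Stard5, a lipid transfer gene, had 5.25 ± 3.31 and 9.57 ± 5.65 CPM in nonescalating libraries at 1 month and 24 h, and 7.18 ± 3.90 and 2.08 ± 1.06 CPM in escalating libraries, a difference of -2.62 (unadjusted p = 0.00128). For Cyb5d1, the gene with the lowest p (0.000491), escalating replicate 5 at 24 h alone held 159.6 CPM, while the other 8 escalating libraries had at most 6.82 CPM and nonescalating libraries at most 9.00 CPM. Il2rg and Fap completed these 5, at levels too low in nonescalating libraries to enter the comparison of their 2 times.

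Replicate numbers of the nonescalating group restart, giving a first run of 6 and a second of 5 libraries at 1 month and runs of 6 and 3 at 24 h. At 1 month the labels of the second run, and those of all 4 escalating libraries, omit the word extended before self-administration, and whether the sessions differed is not stated. Between these runs at 1 month 0 of 14855 genes passed in edgeR (0%), while 456 reached an unadjusted p below 0.05 (3.07%), and DESeq2 called 1, the cytokine gene Il5. At 24 h edgeR called 0 (0%), and 1320 genes (8.89%) reached that level. The difference of the runs between 1 month and 24 h gave 0 calls (0%) and 955 genes (6.43%) at that level. The 5 genes with the lowest p in edgeR were Sstr5, Slc35a1, Vip, Sult5a1 and Fra10ac1. Slc35a1, a sialic acid transporter gene, had a log2 fold change of -1.39 (second over first run, unadjusted p = 0.000767) and Fra10ac1 one of -0.97, and neither passed. Drd1 had -0.09 and Egr1 0.10 between the runs. With only the first run at both times 0 genes were called between 1 month and 24 h, and 562 reached an unadjusted p below 0.05. With only the second run 0 were called and 879 reached that level.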

How the data were processed

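RNA on EGFP-tagged ribosomes was purified with antibodies to EGFP from dorsal striatum and sequenced. Per the submitters' processing notes the authors used STAR 2.0.0e, HTSeq and the mm10 build. For the annotation and the strand setting, the sources used here give nothing. The deposited values were raw counts per gene, with no normalization. The 5 summary lines and 1 entry without a gene name were left out, leaving 32531 genes. Positions come from GENCODE on GRCm38, the same build as mm10.

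Groups followed the sample labels. Genes were kept with edgeR's filterByExpr (minimum count 10) within each comparison, scaled by TMM and tested with edgeR 4.0.16 (quasi-likelihood F-test, robust) in R 4.3.3, with Benjamini-Hochberg adjustment over all genes tested and a threshold of 0.05. The 1 month against 24 h comparison used the 20 nonescalating libraries. The differences between groups came from 1 fit of the 39 immunopurified libraries. A standard error is the log2 fold change divided by the square root of F. CPM are counts scaled to a library total of 1000000 on named genes. Library measures were compared by two-sided exact permutation over the 167960 choices of 9 among 20. The scripts were tested on simulated data. Alternatives were DESeq2 1.42.0, limma 3.58.1 voom weights, other scalings and filters, a replicate block, a run term, thinned counts and leaving out each library.

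Named were called genes, 20 preset genes, and the 5 of lowest p for each difference and between runs. The preset genes Asic1 and Fth1, not described above, had log2 fold changes between the nonescalating times of 0.07 ± 0.12 and 0.13 ± 0.15. In the same order their differences from saline were 0.66 ± 0.30 and -0.41 ± 0.23. Those from escalating mice were -0.03 ± 0.32 and 0.52 ± 0.25, and none of these passed in edgeR. Up to 4 genes of lowest p were also named from each of some, not all, of the 41 lists. The oligodendrocyte, interneuron and sodium channel lists, among others, gave none by this rule. After values were seen, 6 of each direction with the lowest p were added. Genes known only by clone or prediction numbers were passed over. The group of libraries and the lists were chosen with earlier results of these data known. The preset genes include Ttc7b, so they were not chosen blind to these data either. No 2 nonescalating libraries of the same time agreed within sampling noise (55 pairs at 1 month and 36 at 24 h), and other pairs were not checked. Counting without strand information cannot tell a gene from an antisense partner.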

Additional observations from a re-analysis of the deposited data

Results flagged for a closer look

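Among 91 groups of 4 to 9 libraries, 16 held a value far from the rest by Dixon's test, where chance gives about 1 in 20 for normally spread values. Some of the genes were picked for their values in these libraries, so that rate is only a rough guide. The 11 nonescalating libraries at 1 month are more than the test covers, so single high values there, such as 41.25 CPM of Hist2h2bb or 17.65 CPM of Crhr1, were not examined. Nonescalating run 1 replicate 4 at 24 h gave 5 of the 16. That library had 519.2 CPM of Tac1 (next 304.9 CPM), 29.62 CPM of Btg1 (next 20.46 CPM), 46.55 CPM of Pde4a (next 69.94 CPM), 86.74 CPM of Ncam2 (next 132.4 CPM) and 2.793 CPM of the X-inactivation RNA Xist (next 0.2645 CPM). It is also the library that lay apart on the second principal component, and whether these share a source was not tested.

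Other nonescalating libraries at 24 h stood apart in 1 to 2 measures each. Run 2 replicate 3 had 171.8 CPM of interneuron markers in sum (next 89.08 CPM) and 564.5 CPM of cortical neuron markers (next 293.5 CPM). Run 2 replicate 1 had 397.3 CPM of oligodendrocyte markers (next 219.2 CPM) and 363.1 CPM of Sv2b (next 506.7 CPM). Run 1 replicate 6 had 2.563 CPM of Cacna2d4 (next 1.058 CPM), run 2 replicate 2 had 1.673 CPM of Hist2h2bb (next 0.8871 CPM), and run 1 replicate 3 had 72.87 CPM of Rora (next 85.36 CPM).

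In the groups set against them, saline replicate 3 at 24 h had 645.3 CPM of Ttc7b (next 374.6 CPM), saline replicate 5 at 24 h had 73.23 CPM of Nod2 (next 11.28 CPM), saline replicate 5 at 1 month had 88.62 CPM of Pde4a (next 80.23 CPM), and escalating replicate 5 at 24 h had 159.6 CPM of Cyb5d1 (next 6.816 CPM). The change of Ttc7b over time differed between nonescalating and saline mice by 1.1 on the log2 scale, in a test of the difference itself.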

How the results depend on the processing

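Between 1 month and 24 h the count of called genes was 0 under each edgeR and voom alternative and without any 1 of the 20 libraries (321 to 492 genes at an unadjusted p under 0.05 in these 20 fits), and 1 with DESeq2. For the difference from saline, 1 gene was called, against 99 with DESeq2, 3 with size factors, 4 with genes of at least 5 CPM, 0 with only the 30 libraries of both groups, 0 with the replicate block, 6 with the endothelial and mural level as a term, 0 with nonescalating libraries of the first run and 2 with those of the second. Leaving out 1 library gave 0 to 18 calls, with 0 in 13 of 39 fits. The 18 came without saline replicate 2 at 24 h, and 8 came without replicate 1. The difference from escalating kept 0 calls under each alternative, and the comparison of runs had 1 call with DESeq2. The terms for marker level and the fits by run for the saline difference, and those without libraries that stood apart, were chosen after seeing the data. Of 104 named genes tested between the times, 72 kept their sign under up to 34 alternatives, and Supt20 alone was called under any. Same-numbered nonescalating libraries of the 2 times share only a number: over 9 pairs their deviations correlated at -0.341 to 0.421, and 0 libraries correlated best with their own number. With the replicate block 0 genes were called between the times, with 254 at an unadjusted p under 0.05. The causes of these shifts were not tested. Intervals were widest under 5 CPM, and whether depth or spread between libraries sets this was not tested. Counts thinned to the shallowest library gave 0 calls, with 374 unadjusted.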
